A study of Arabidopsis thaliana with 6 samples.

Results

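The flavonoid regulators described here are transcription factors and a WD40-repeat protein that set the output of the flavonoid pathway in Arabidopsis thaliana. They were chosen by locus identifier from tables of 26984 genes. The choice used no measured values as a criterion, but it was made with earlier results of these data known. The rule names 10 loci, of which 9 were measured: the flavonol factors MYB11, MYB12 and MYB111, the anthocyanin factor MYB90, the basic helix-loop-helix (bHLH) factors TT8 and EGL3, the WD40 protein TTG1, the repressor MYBL2, and the single-repeat MYB-like factor MYBD. The other, MYB75, was not analysed here. RNA-seq was done on whole 7-day-old seedlings kept in short days and collected at zeitgeber time 20 h, in the night. Wild type of accession Col-0 (Col_0 libraries 1, 2 and 3) was compared with the hy5-215 mutant (hy5 libraries 4, 5 and 6), which carries a lesion in HY5, a light-signalling bZIP factor. The mutant is represented by 1 allele and 1 time point, and no treatment is named. Separate plantings are not stated for libraries of a genotype, so the tests rest on a spread between libraries that may be technical.

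Flavonoids are phenolic compounds that screen ultraviolet light, colour tissues and tan the seed coat. Flavonol synthesis is switched on by MYB11, MYB12 and MYB111, closely related R2R3-MYB factors that act without a bHLH partner. The later anthocyanin and proanthocyanidin steps need a complex of an R2R3-MYB, a bHLH factor and TTG1, and MYBL2 holds that complex back by binding the bHLH partner. MYBD has been described as a factor that acts under HY5 and represses MYBL2.

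Upstream sequences are shown for the 4 members whose level passed a test below, because HY5 and related bZIP factors bind DNA elements built on an ACGT core, the best known being the G-box CACGTG. The 300 bases before each annotated gene start were read from the RefSeq TAIR10.1 genome and searched on both strands. A G-box was present in 7.08% of the 26983 windows of this length and in 2 of the 9 regulators. The shorter CACGT, which every G-box contains, was present in 25.6% of windows and in 4 regulators. The core alone, which both contain, was present in 48.9% of windows and in 8 regulators. Capitals mark each core with those flanking letters that extend it to one of the longer motifs. The window of MYB12 is chr2:19476026-19476325 on the plus strand. The others lie on the minus strand, MYB111 at chr5:20001573-20001872, MYBD at chr1:26364879-26365178 and MYBL2 at chr1:26796533-26796724. The MYBL2 sequence is the 192 bases between its start and the neighbouring gene.
MYB12: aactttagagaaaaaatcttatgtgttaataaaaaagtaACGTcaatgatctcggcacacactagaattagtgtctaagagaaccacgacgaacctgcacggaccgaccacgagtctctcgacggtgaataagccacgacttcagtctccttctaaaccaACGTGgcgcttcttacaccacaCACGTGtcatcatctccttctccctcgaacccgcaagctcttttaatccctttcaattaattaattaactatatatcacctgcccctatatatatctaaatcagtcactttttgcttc
MYB111: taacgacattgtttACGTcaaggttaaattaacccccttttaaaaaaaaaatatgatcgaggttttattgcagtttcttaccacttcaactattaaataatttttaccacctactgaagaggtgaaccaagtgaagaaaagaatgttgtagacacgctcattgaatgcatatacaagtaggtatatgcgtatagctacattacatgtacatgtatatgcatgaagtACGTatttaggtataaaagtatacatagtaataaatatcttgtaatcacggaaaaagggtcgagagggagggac
MYBD: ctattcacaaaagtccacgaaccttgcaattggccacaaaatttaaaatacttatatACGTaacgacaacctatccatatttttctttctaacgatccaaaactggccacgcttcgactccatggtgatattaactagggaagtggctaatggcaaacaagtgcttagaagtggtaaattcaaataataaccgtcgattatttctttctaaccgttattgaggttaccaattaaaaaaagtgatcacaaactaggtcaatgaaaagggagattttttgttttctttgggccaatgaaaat
MYBL2: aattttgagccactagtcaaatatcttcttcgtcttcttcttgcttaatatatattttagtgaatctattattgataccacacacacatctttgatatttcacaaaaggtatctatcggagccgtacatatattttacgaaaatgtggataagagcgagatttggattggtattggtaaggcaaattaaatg
MYB12 holds 3 cores, at positions -261, -140 and -117 from the gene start, and the last of them lies in a complete G-box. MYB111 holds cores at -286 and -74, neither within the 5-letter motif, and MYBD a single core at -243. No core was present in the MYBL2 window, including the bases not printed. The other G-box among the regulators was upstream of MYB90, and 1 match each to the 5-letter motif was upstream of MYB11 and TT8. These matches describe letters only, and no binding was measured.

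Values are FPKM, fragments scaled by transcript length and library size, as the authors deposited them. The 6 libraries summed to between 528554 and 556418 FPKM. Judged from the lowest values above 0, 1 fragment was worth about 0.0473 to 0.0506 FPKM for a transcript of 1 kb, or about 19800000 to 21100000 fragments per library. This estimate takes the lowest group of values as single fragments and uses annotated transcript lengths. HY5 (AT5G11260) was at 13.0 to 13.9 FPKM in wild type and 1.88 to 3.04 FPKM in the mutant, and its homolog HYH at 23.3 to 26.3 against 2.08 to 3.49 FPKM. Green tissue and root were both represented, with the Rubisco gene RBCS1A at 13460 to 19299 FPKM and the root stele gene PHO1 at 34.5 to 46.0 FPKM, and 0 of 4 green tissue and 0 of 3 tested root genes passed by limma (3 and 0 at an unadjusted p under 0.05). Seed reserve transcripts were lower in hy5. The 10 listed storage and oil body genes summed to 51.5, 326 and 123 FPKM in Col_0 1, 2 and 3. In hy5 4, 5 and 6 the sums were 14.8, 3.901 and 3.70 FPKM, with no overlap for any of the 10. Of all genes, 17.5% lay lower in hy5 without overlap. In the limma fits described below, 9 of 10 fell without the filter, against 8.15% of all genes. With the filter 5 of 8 fell, several of which met it through wild type alone. That count was 1 without hy5 4, 2 without hy5 5 and 0 without hy5 6. The part of this seed reserve difference in the results below was not tested. In whole seedlings, fewer cells of a type and less RNA per cell cannot be told apart.

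Of the 9 regulators, 4 reached at least 1 FPKM in at least 3 libraries and 5 did not. Differences were tested with limma on log2(FPKM + 1), hy5 over Col_0, with Benjamini-Hochberg adjustment over the 17205 genes that met this filter. In this filtered fit MYBL2 rose, MYBD fell and EGL3 and TTG1 did not pass an adjusted p of 0.05, while 22.8% of all genes passed (11.7% higher and 11.1% lower in hy5). The other 5 regulators were read from a limma fit without the filter, over 22416 genes, in which 16.4% passed (8.22% higher and 8.15% lower). There 1 of 9 regulators rose and 3 fell, MYB12 and MYB111 being added. With a pseudocount of 0.1 in place of 1, 1 rose and 2 fell (MYB12, MYBL2 and MYBD), against 16.7% of all genes (8.43% higher and 8.27% lower). Genotypes did not overlap for 6 of the 9, 2 higher and 4 lower in hy5, and for 35.3% of all genes (17.8% higher and 17.5% lower). The median log2 fold change of the 9 in the unfiltered fit was -0.09, against -0.00 for all genes. The log2(FPKM + 1) scale understates changes of genes as low as many of these.

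**Figure D1:**
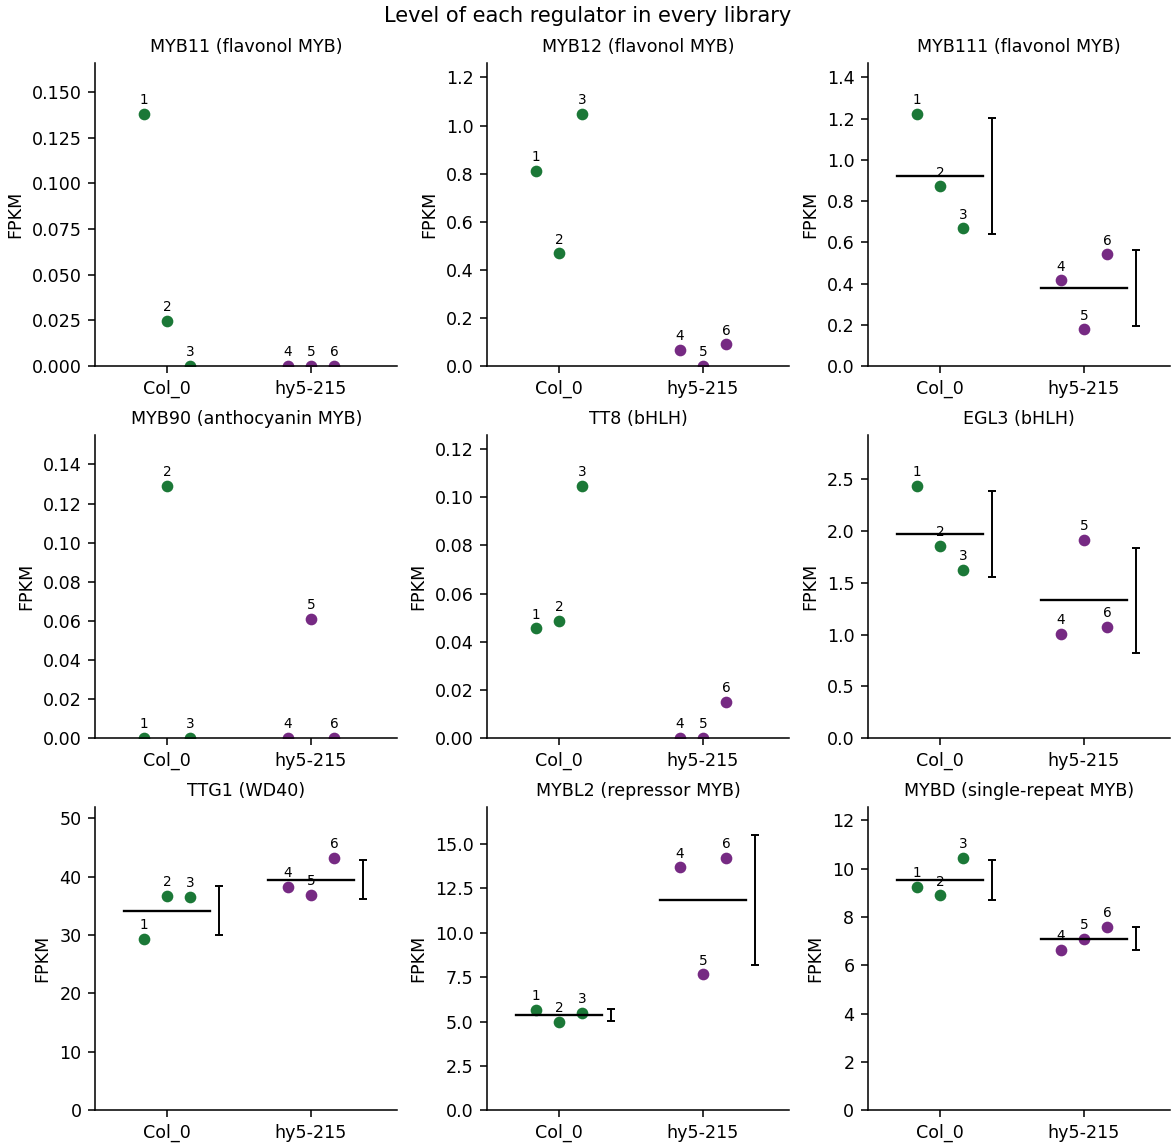
FPKM of the 9 measured regulators in each library (points, numbered as in the text; each panel has its own axis from 0), with the mean (line) and SD (bar) of 3 libraries per genotype where no library was listed at 0. MYB12, MYB111, TT8 and MYBD lay lower in all hy5 libraries, MYBL2 and TTG1 higher, and MYB11, MYB90 and EGL3 overlapped.

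The flavonol factors were low, and 2 of them were lower in hy5. MYB12 (AT2G47460, chromosome 2, 19476326 to 19479597, plus strand, 3 merged exons), a direct activator of chalcone synthase and flavonol synthase genes, stood at 0.811, 0.469 and 1.05 FPKM in Col_0 1, 2 and 3. The same transcript was at 0.0677, 0 and 0.0907 FPKM in hy5 4, 5 and 6. The highest hy5 library was below the lowest wild-type library, and hy5 5 was listed at 0. By the estimate above, these values correspond to about 26, 15 and 34 fragments in wild type and about 2, 0 and 3 in the mutant. The log2 fold change was -0.74 (SE 0.12, limma adjusted p = 0.0042, unfiltered). It lay between -0.87 and -0.63 when each library was left out in turn, with limma adjusted p from 0.0010 to 0.020, and was -2.51 with a pseudocount of 0.1 (limma adjusted p = 0.0017).

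MYB111 (AT5G49330, chromosome 5, 19998823 to 20001572, minus strand, 3 merged exons), another activator of the flavonol genes, had 1.22, 0.872 and 0.668 FPKM in Col_0 1, 2 and 3 and 0.416, 0.178 and 0.542 FPKM in hy5 4, 5 and 6. The genotypes did not overlap, and the means were 0.922 ± 0.28 and 0.379 ± 0.18 FPKM (SD, n = 3), a 2.43-fold difference. The log2 fold change was -0.48 (SE 0.14, limma adjusted p = 0.045, unfiltered). This call depended on the libraries and the pseudocount: the limma adjusted p was 0.058 with a pseudocount of 0.1, and 0.11 without Col_0 1, 0.084 without Col_0 2, 0.10 without hy5 4, 0.14 without hy5 5 and 0.062 without hy5 6. MYB11 (AT3G62610, chromosome 3, 23154630 to 23156585, plus strand, 3 merged exons), the remaining factor of this trio, was listed at 0.138, 0.0246 and 0 FPKM in Col_0 1, 2 and 3 and at 0 in every hy5 library. With about 4 fragments at most in any library, a difference was not detectable at this depth. Summed over the 3 flavonol factors, the level was 2.17, 1.37 and 1.72 FPKM in Col_0 1, 2 and 3 and 0.484, 0.178 and 0.633 FPKM in hy5 4, 5 and 6.

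MYB12 and MYB111 overlapped in wild type (0.469 to 1.05 and 0.668 to 1.22 FPKM). They did not overlap in hy5, where every library held more MYB111 (0.178 to 0.542 FPKM) than the highest MYB12 value (0.0907 FPKM). MYB11 and MYB12 transcripts share a stretch of 370 nt with 85.9% identity, and the treatment of shared reads is not known here.

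Genes that the flavonol factors act on fell in part. Without the filter, 5 of 10 listed flavonol branch enzymes fell and 5 did not pass, with a median log2 fold change of -0.58 against -0.00 for all genes, of which 8.15% fell. The filtered fit called 6 of 9 tested, but F3H and FLS1 met the filter through wild type alone, so that count carries no weight as a share. The smallest p-values belonged to CHS, which makes the chalcone skeleton (log2 fold change -2.57), F3H, the flavanone hydroxylase gene (-2.19), and FLS1, the flavonol synthase gene (-1.75). CHIL, a chalcone isomerase-like gene (-1.21), and UGT78D2 (-0.70) and UGT89C1 (-0.46), which add sugars to flavonols, also fell. The call of UGT89C1 was not stable: the limma adjusted p was 0.032 in the filtered fit, 0.061 without the filter, 0.055 after quantile normalization, and 0.053 without Col_0 2, 0.084 without Col_0 3, 0.13 without hy5 4 and 0.14 without hy5 6. CHI, the chalcone isomerase gene, did not pass, at 8.57 to 11.0 FPKM in wild type and 8.73 to 9.27 FPKM in the mutant, nor did UGT78D1, at 14.0 to 16.6 against 13.4 to 14.3 FPKM, nor the flavonoid 3'-hydroxylase gene AT5G07990, at 1.37 to 1.56 against 1.31 to 2.01 FPKM.

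**Figure D2:**
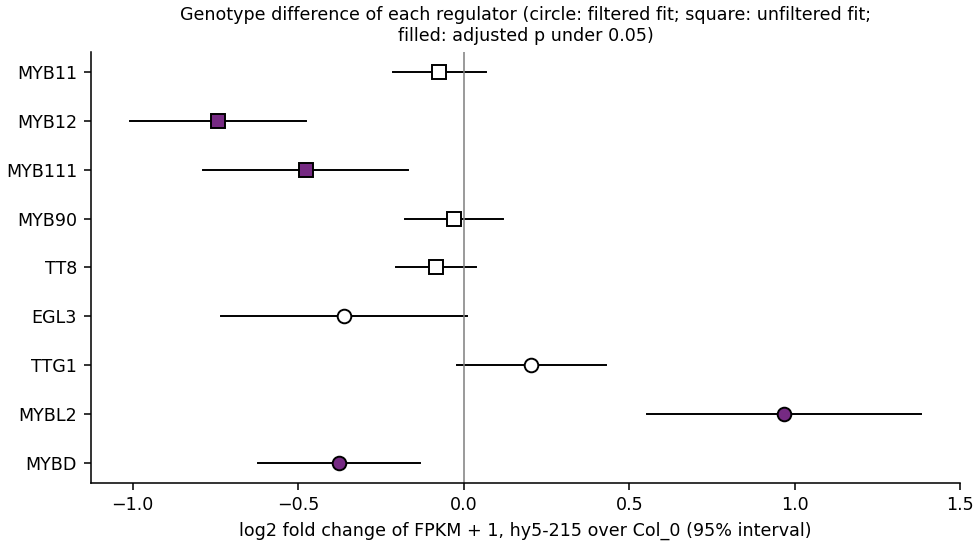
log2 fold change of FPKM + 1 (hy5-215 over Col_0) of each regulator with its 95% interval from limma. Filled symbols passed an adjusted p of 0.05: MYBL2 upward, and MYB12, MYB111 and MYBD downward.

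MYB90 and TT8 were close to the detection limit. MYB90 (AT1G66390, chromosome 1, 24763941 to 24765541, plus strand, 3 merged exons), also called PAP2, an activator of anthocyanin genes, was listed at 0, 0.129 and 0 FPKM in Col_0 1, 2 and 3. Its listed values were 0, 0.0611 and 0 FPKM in hy5 4, 5 and 6. No more than about 3 fragments lie behind any of these values. It shares 263 nt at 94.7% identity with its relative MYB114, so its reads are uncertain, and MYB113 and MYB114 were listed at 0 in all 6 libraries. TT8 (AT4G09820, chromosome 4, 6181881 to 6186523, plus strand, 7 merged exons), a bHLH partner best known from the seed coat and from anthocyanin synthesis, had 0.0456, 0.0485 and 0.105 FPKM in Col_0 1, 2 and 3. It was listed at 0 in hy5 4 and 5 and at 0.0149 FPKM in hy5 6. Genotypes did not overlap, but the test did not pass (log2 fold change -0.09, SE 0.05, limma adjusted p = 0.32, unfiltered). An exact two-sided permutation test gave p = 0.1, the smallest that 3 against 3 allows. The seed coat regulators TT2, TT1 and TT16 and the tannin genes BAN and TT12 were listed at 0 in every library. The other 2 genes of that list were detected in every library and did not pass by limma without the filter, AHA10 at 0.184 to 0.453 against 0.128 to 0.1602 FPKM and TT10 at 0.110 to 0.130 against 0.131 to 0.194 FPKM.

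EGL3 (AT1G63650, chromosome 1, 23599413 to 23603164, plus strand, 7 merged exons), a bHLH partner in anthocyanin synthesis and in trichome and root hair patterning, was more abundant than TT8. It stood at 2.44, 1.86 and 1.62 FPKM in Col_0 1, 2 and 3 and was at 1.01, 1.92 and 1.08 FPKM in hy5 4, 5 and 6. Libraries hy5 4 and 6 lay below all wild-type libraries, while hy5 5 lay among them. The difference did not pass (log2 fold change -0.36, SE 0.17, 95% interval -0.73 to 0.01, limma adjusted p = 0.15). Without hy5 5 it was -0.53 (limma adjusted p = 0.049), and without each of the other libraries the limma adjusted p was 0.11 to 0.42. GL3, a close relative of EGL3, had 0.691, 0.393 and 0.419 FPKM in Col_0 1, 2 and 3 and 0.343, 0.230 and 0.212 FPKM in hy5 4, 5 and 6, and did not pass (limma adjusted p = 0.12, unfiltered).

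TTG1 (AT5G24520, chromosome 5, 8370317 to 8372847, minus strand, 3 merged exons), the WD40 scaffold of the complex, was the most abundant of the 9 in every library. Its level was 29.3, 36.7 and 36.5 FPKM in Col_0 1, 2 and 3 and 38.2, 36.9 and 43.2 FPKM in hy5 4, 5 and 6. All hy5 libraries lay above all wild-type libraries, with hy5 5 just above Col_0 2. The difference did not pass (log2 fold change 0.20, SE 0.11, 95% interval -0.02 to 0.43, limma adjusted p = 0.18). Neither did that of the WD40 homologs LWD1 and LWD2, which act in the circadian clock, at 63.8 to 80.0 against 70.3 to 78.3 FPKM and at 10.8 to 11.6 against 12.2 to 14.1 FPKM (limma, with 0 of 2 at an unadjusted p under 0.05).

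MYBL2 was the regulator that rose. MYBL2 (AT1G71030, chromosome 1, 26795052 to 26796532, minus strand, 2 merged exons) had 5.67, 4.99 and 5.48 FPKM in Col_0 1, 2 and 3, and 13.7, 7.66 and 14.2 FPKM in hy5 4, 5 and 6. All hy5 libraries were above all wild-type libraries, and hy5 5 lay well below hy5 4 and 6. The means were 5.38 ± 0.35 and 11.9 ± 3.64 FPKM (SD, n = 3), a 2.204-fold rise with a log2 fold change of 0.97 (SE 0.19, limma adjusted p = 0.0041). Without hy5 5 it was 1.23 (limma adjusted p = 0.00011), and the gene passed without each library in turn in the filtered fit. In the unfiltered fit the limma adjusted p was 0.051 without hy5 4 and 0.053 without hy5 6. Library hy5 5 was the mutant library closest to the wild-type mean for 2102 of the 3915 genes that passed (53.7%). Among regulators that passed in the filtered fit, this held for MYBL2 but not for MYBD, for which hy5 6 was closest. It also held for EGL3 and TTG1, which did not pass.

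MYBD (AT1G70000, chromosome 1, 26362979 to 26364878, minus strand, 3 merged exons) moved the other way and by less. It had 9.24, 8.90 and 10.5 FPKM in Col_0 1, 2 and 3 and 6.65, 7.09 and 7.59 FPKM in hy5 4, 5 and 6, with no overlap. The means were 9.53 ± 0.81 and 7.11 ± 0.47 FPKM (SD, n = 3), with a log2 fold change of -0.38 (SE 0.11, limma adjusted p = 0.030). The limma adjusted p was 0.058 without Col_0 1, 0.14 without hy5 4, 0.067 without hy5 5 and 0.066 without hy5 6, while the log2 fold change stayed between -0.42 and -0.31 without each library. In the unfiltered fit the limma adjusted p of MYBD was 0.040, and it was 0.059 to 0.16 when each library was left out in turn. MYBL2 was at 0.524 to 0.613 times the MYBD level in wild type and at 1.08 to 2.06 times that level in the mutant. The order of the pair was thus the opposite in every mutant library.

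**Figure D3:**
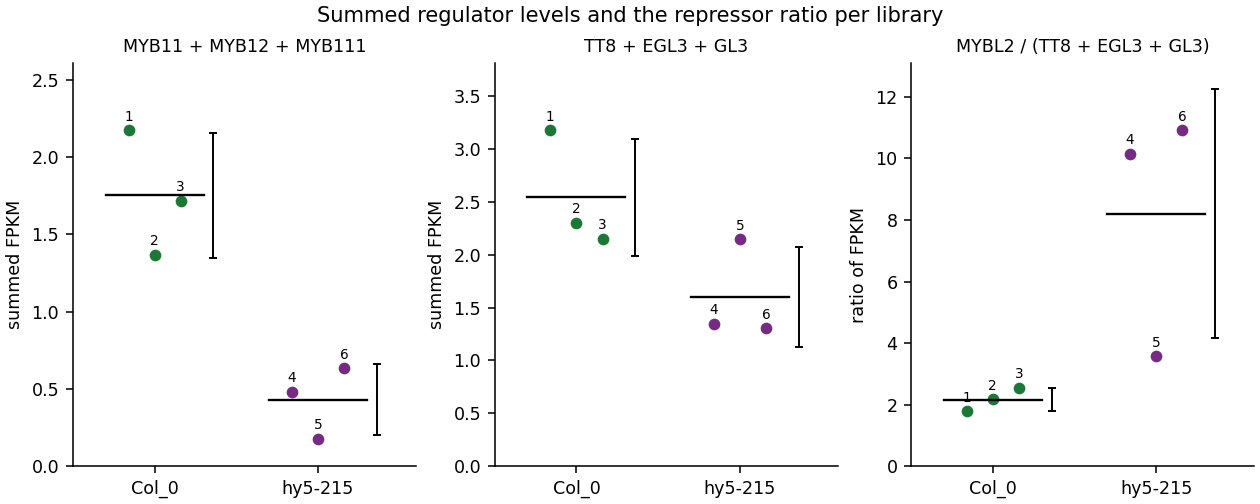
Summed FPKM of the flavonol factors and of the bHLH factors TT8, EGL3 and GL3, and the ratio of MYBL2 to the bHLH sum, in each library. The mean (line) and SD (bar) of 3 libraries per genotype are shown. MYC1, a further listed bHLH gene, is not in the bHLH sum. The flavonol sums and the ratios did not overlap between genotypes, and hy5 5 lay beside the lowest wild-type library in the bHLH sum.

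Relative to the bHLH partners it binds, MYBL2 was also higher in hy5. The summed level of TT8, EGL3 and GL3 was 3.17, 2.30 and 2.15 FPKM in Col_0 1, 2 and 3 and 1.35, 2.15 and 1.303 FPKM in hy5 4, 5 and 6. The ratio of MYBL2 to this sum was 1.79, 2.17 and 2.55 in Col_0 1, 2 and 3 and 10.1, 3.57 and 10.9 in hy5 4, 5 and 6. The genotypes did not overlap in MYBL2, nor in the sum, where hy5 5 (2.146 FPKM) lay just below Col_0 3 (2.149 FPKM). The ratio therefore could not overlap and adds no separate observation. It covers TT8, EGL3 and GL3 only, and these sums and ratios are descriptions without a test. By mean level in wild type the order was TTG1, MYBD, MYBL2, EGL3, MYB111 and MYB12. Neighbours overlapped for MYB111 and MYB12 only, and TT8, MYB11 and MYB90 were lower than these.

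Genes of the late anthocyanin branch, which the complex switches on, were low and mostly lower in hy5. Of 8 listed genes, 4 met the filter, of which 3 fell. LDOX, the leucoanthocyanidin dioxygenase gene, had 2.02, 2.57 and 1.75 FPKM in Col_0 1, 2 and 3 and 0.131, 0.509 and 0.0670 FPKM in hy5 4, 5 and 6 (log2 fold change -1.34, limma adjusted p = 0.00012). DFR, the dihydroflavonol reductase gene, had 1.65, 1.89 and 1.35 FPKM in Col_0 1, 2 and 3 and 0.210, 0.309 and 0.0306 FPKM in hy5 4, 5 and 6 (log2 fold change -1.15, limma adjusted p = 0.00018). Both met the filter through wild type alone, so the count carries no weight as a share. In the unfiltered fit the limma adjusted p was 0.0011 for LDOX and 0.00069 for DFR. SAT, a sinapoyltransferase gene that decorates anthocyanins, went from 3.09 ± 0.66 to 1.65 ± 0.50 FPKM with a limma adjusted p of 0.017, which was 0.070 without Col_0 1, 0.065 without hy5 4 and 0.090 without hy5 6. BGLU10, a gene for an anthocyanin-glucosylating enzyme, did not pass, at 4.77 to 7.85 against 6.21 to 6.91 FPKM. Without the filter 7 of the 8 fell by limma, the added genes being UGT75C1, UGT79B1, TT19 and AT3G29590, named after their values were seen. The median log2 fold change of the 8 was -0.61, and 8.15% of all genes fell in that fit. LDOX, DFR and TT19 also passed there without each library in turn. The limma adjusted p without hy5 4 was 0.052 for UGT75C1 and 0.058 for UGT79B1, and without hy5 6 it was 0.055 for AT3G29590. For SAT it was 0.11 without Col_0 1, 0.096 without Col_0 2, 0.13 without hy5 4 and 0.14 without hy5 6.

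The same bHLH and WD40 proteins pair with other MYB factors in the epidermis, where they specify trichomes and root hair files. Without the filter, 3 of 4 listed epidermal genes fell, with a median log2 fold change of -1.02, while 8.15% of all genes fell. MYB23, a trichome and root MYB factor, had 2.60, 3.49 and 3.36 FPKM in Col_0 1, 2 and 3 and 0.743, 0.748 and 1.179 FPKM in hy5 4, 5 and 6 (log2 fold change -1.14, limma adjusted p = 0.0016, unfiltered). GL2, a homeodomain factor that the epidermal complex activates, had 2.68, 2.40 and 3.20 FPKM in Col_0 1, 2 and 3 and 0.813, 0.901 and 1.005 FPKM in hy5 4, 5 and 6 (log2 fold change -0.97, limma adjusted p = 0.0018, unfiltered). GL1, the main trichome MYB, was under the filter at 0.577 to 2.06 against 0.0418 to 0.289 FPKM (limma adjusted p = 0.013, unfiltered). WER, the root epidermal MYB factor, did not pass, at 0.429 to 2.16 against 0.816 to 2.07 FPKM.

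Small single-repeat MYB proteins compete for the bHLH partner, and none of those tested rose by limma. Without the filter, 2 of 5 listed R3 MYB repressors fell and 3 did not pass, while 8.15% of all genes fell. Their median log2 fold change was -0.37, against -0.00 for all genes. TRY, which inhibits trichome fate in neighbouring cells, had 2.69, 2.30 and 3.29 FPKM in Col_0 1, 2 and 3 and 0.807, 1.75 and 0.743 FPKM in hy5 4, 5 and 6 (log2 fold change -0.86, limma adjusted p = 0.0046, filtered). In the unfiltered fit its limma adjusted p was 0.017, which was 0.067 without hy5 4 and 0.071 without hy5 6. ETC1 went from 2.16 ± 0.56 to 1.10 ± 0.30 FPKM. Its limma adjusted p in the filtered fit was 0.025, which was 0.081 without Col_0 1, 0.084 without Col_0 2 and 0.10 without hy5 5. In the unfiltered fit it was 0.047. That value became 0.12 without Col_0 1, 0.13 without Col_0 2, 0.093 without hy5 4, 0.14 without hy5 5 and 0.089 without hy5 6. CPC, which moves between root epidermal cells, did not pass, at 1.58 to 2.74 against 0.986 to 1.92 FPKM. The difference between the change of MYBL2 and that of these repressors was not tested. The list of other regulators holds these 5 repressors, the 4 epidermal genes and 12 further genes, among them GL3, MYC1, TTG2, the LBD and SPL9 repressors and the MYB4 group. Of its 21 genes, 19 were tested by limma without the filter, of which 5 fell, 0 rose and 14 did not pass. Of all genes in that fit, 8.15% fell and 8.22% rose. The 5 listed genes that fell were all repressors or epidermal genes already named.

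**Figure D4:**
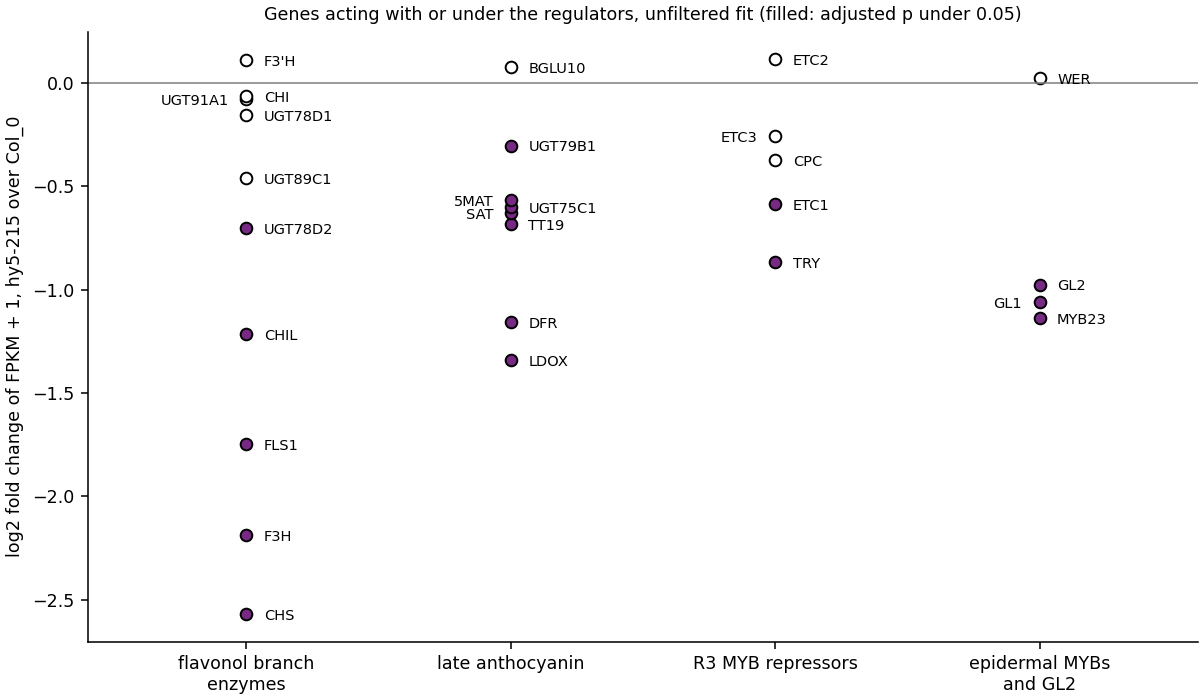
log2 fold change of FPKM + 1 (hy5-215 over Col_0) in the unfiltered limma fit for genes acting under or with the regulators, by list. Filled circles passed an adjusted p of 0.05: 5 of 10 flavonol branch enzymes, 7 of 8 late anthocyanin genes, 2 of 5 R3 MYB repressors and 3 of 4 epidermal genes, all downward.

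Profiles most like those of MYBL2 and MYBD were sought among 5650 genes with a symbol and a mean of at least 5 FPKM. The measure was the mean absolute difference over the 6 libraries on the log2(FPKM + 1) scale, after each gene was set to its own wild-type mean. The closest to MYBL2 were HSPRO2 (0.086), ERD14 (0.107), a dehydrin gene, and UGE1 (0.113), a UDP-glucose epimerase gene. HSPRO2 had 23.6, 21.0 and 20.5 FPKM in Col_0 1, 2 and 3 and 47.9, 33.2 and 50.7 FPKM in hy5 4, 5 and 6. It was picked for likeness over these same libraries, so the low hy5 5 value shared with MYBL2 follows from the choice. The closest to MYBD were RHA2A (0.040), a RING-finger gene, GRP4 (0.042), a glycine-rich RNA-binding protein gene, and LUL4 (0.042), another RING-finger gene. RHA2A had 30.0, 29.1 and 32.4 FPKM in Col_0 1, 2 and 3 and 22.4, 22.0 and 23.6 FPKM in hy5 4, 5 and 6.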

How the data were processed

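The authors deposited 1 FPKM table per library. Trimmomatic 0.36, HISAT2 2.2.1.0, Cufflinks, TopHat, Bowtie2 and DESeq 1.18.0 appear in the submitters' processing notes, as does the build TAIR10, with no role for any of them. The sources used here do not give the annotation, the strand setting or the handling of shared reads. Titles gave the groups.

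The log2(FPKM + 1) values of genes reaching 1 FPKM in 3 or more libraries were fitted with genotype in limma 3.58.1 (R 4.3.3, with trended, robust empirical Bayes). The 5 members under the filter came from the same fit without the filter and from exact permutation. Only the filtered fit was checked on simulated data, with 200 planted changes among genes that met the filter. The unfiltered fit was not checked in this way. Members and gene lists were chosen with earlier results of these data known. Named genes are the members, HY5, HYH, up to 3 called genes with the smallest p per list, and the 3 most similar profiles per called member; others were named after their values were seen. Alternatives were pseudocounts of 0.1 and 5, no filter, a filter at 5 FPKM, 3 rescalings and leaving out each library. The unfiltered fit with a pseudocount of 0.1 or without 1 library was added after seeing the data. Fragments were estimated from values between 0.02 and 0.065 FPKM times kb, a range set after seeing the data, and no error was computed for these estimates. Transcripts were compared with blastn 2.17.0 over at least 100 nt. Symbols, loci and sequences came from RefSeq TAIR10.1.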

Additional observations from a re-analysis of the deposited data

How the results depend on the processing

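Over all genes, 3915 passed, and 2028 to 4309 when each library was left out, with 2201 without hy5 4 and 2028 without hy5 6. Of the regulators, 2 passed in the filtered fit, 1 to 2 without each library and 4 without the filter. MYB12 passed in each unfiltered fit run, and MYBL2 in each fit run except the unfiltered fit without hy5 4 or hy5 6 (limma adjusted p = 0.051 and 0.053). MYBD passed in no unfiltered fit that left out a library (limma adjusted p from 0.059 to 0.16). Flavonol branch enzymes that passed numbered 6, and 3 to 6 without each library, the lowest without Col_0 2 or Col_0 3, where 7 rather than 9 were tested because F3H and FLS1 no longer met the filter. Both passed by limma in the unfiltered fits without Col_0 2 or Col_0 3. Late anthocyanin genes numbered 3, and 0 to 3 without each library, 7 without the filter, 7 without the filter at a pseudocount of 0.1 and 0 at 5 FPKM. At 5 FPKM, 1 of them was tested (0 at an unadjusted p under 0.05 by limma). None passed without Col_0 1, where 2 were tested by limma (1 at an unadjusted p under 0.05). Other regulators numbered 4, 3 to 4 without each library and 0 at 5 FPKM, where 5 were tested (0 at an unadjusted p under 0.05 by limma). The log2 fold change of MYB90 went from -0.03 to 0.0285 without Col_0 2, its only wild-type library above 0; no other regulator changed direction. Rescaling moved the median log2 fold change of all genes by at most 0.02. No paired analysis was possible because the genotypes carry different library numbers. Depth limits MYB11, MYB90 and TT8, at about 4 fragments or fewer.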

Other observations

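Relatives of MYBD among the single-repeat MYB-like genes were also measured. Of 7 listed relatives, 5 were tested, 3 rose and 2 did not pass by limma, with a median log2 fold change of 0.27, while 11.7% of all genes rose. MYBS2 had 25.2, 21.5 and 20.7 FPKM in Col_0 1, 2 and 3 and 34.9, 32.0 and 38.2 FPKM in hy5 4, 5 and 6 (log2 fold change 0.62, limma adjusted p = 0.00094). AT1G74840 had 72.3, 61.9 and 71.6 FPKM in Col_0 1, 2 and 3 and 101, 89.5 and 107 FPKM in hy5 4, 5 and 6 (log2 fold change 0.53, limma adjusted p = 0.0019). All mutant libraries were above all wild-type libraries for both genes. AT1G19000, whose transcript shares 224 nt at 78.1% identity with MYBD, was at 126 ± 7.02 and 153 ± 7.26 FPKM with a limma adjusted p of 0.033, which was 0.058 without Col_0 1, 0.054 without Col_0 2, 0.053 without Col_0 3, 0.13 without hy5 4 and 0.16 without hy5 6. MYBH did not pass, at 17.1 to 19.99 against 21.1 to 23.4 FPKM (limma adjusted p = 0.076). The difference between the change of MYBD and that of its relatives was not tested.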
